A study of Mus musculus with 24 samples.

Results

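Htr2c encodes the serotonin 2C receptor, and its introns hold the precursors of several miRs. The levels of Htr2c mRNA and of 5 of these miRs, mmu-mir-764, mmu-mir-1912, mmu-mir-1264, mmu-mir-1298 and mmu-mir-448, were compared in the nucleus accumbens (NAc) of male and female mice with and without stress. These 6 members were 1 of the 38293 genes of the mRNA count table and 5 of the 1180 precursors of the small RNA count table. The set was chosen on values of these same libraries and on position. The change of mmu-mir-1912 after stress was known from earlier results of these data. Its host gene and other miRs of the host's introns, though not every annotated one, were added by name. For this reason the members' levels and differences are given as descriptions, with standard errors and without p-values.

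The libraries came from C57BL/6J mice that were 9 weeks old by the sample labels and 8 weeks old by the study's methods. The groups were nonstressed males (NSM), stressed males (SM), nonstressed females (NSF) and stressed females (SF). Stress was Subchronic Variable Stress (SCVS), a course of 6 days of 3 stressors (foot shock, tail suspension and restraint) with tissue taken 24 h after the last one. Female mice were taken in proestrus or estrus. Each group had 3 pools, each pool held 10 NAc punches from 5 mice, and the homogenate of a pool gave 1 mRNA library and 1 small RNA library, so that the 12 pools can be followed in both assays. A pool averages its mice and its cell types, and in such bulk RNA fewer cells of a type and less RNA per cell cannot be told apart.

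The receptor couples through Gq to phospholipase C, inositol trisphosphate receptors and protein kinase C, and its mRNA is a known target of A-to-I editing by ADAR enzymes. It is found on neurons of many brain regions and is known for very high levels in the choroid plexus. Intronic miRs are cut from the transcript as hairpins by Drosha and Dgcr8, exported, cut again by Dicer1 and loaded onto Argonaute proteins, where bases 2 to 8 of the mature miR, the seed, lead target pairing. An intronic miR can share its promoter with the host gene, but the steps of processing and decay differ for each hairpin. The counts used here do not separate edited from unedited Htr2c mRNA, and each miR has 1 row named as a precursor, with no row for either arm.

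In the mouse genome build NCBIM37, Htr2c (ENSMUSG00000041380) spans chrX:143397056-143631820 on the plus strand, 234765 bases of which 3.97% are exonic. Numbered on its transcript of 7 exons, mmu-mir-764 (chrX:143436802-143436909), mmu-mir-1912 (chrX:143443984-143444070), mmu-mir-1264 (chrX:143445144-143445229) and mmu-mir-1298 (chrX:143499448-143499545) lie in intron 3, which is 85268 bases long. mmu-mir-448 (chrX:143592753-143592864) lies in intron 5, which is 93522 bases long. All 5 hairpins are on the strand of the host. mmu-mir-1912 and mmu-mir-1264 are neighbours with 1073 bases between them, 7074 bases separate mmu-mir-764 from mmu-mir-1912, 54218 bases separate mmu-mir-1264 from mmu-mir-1298, and 93207 bases separate mmu-mir-1298 from mmu-mir-448.

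**Figure D1:**
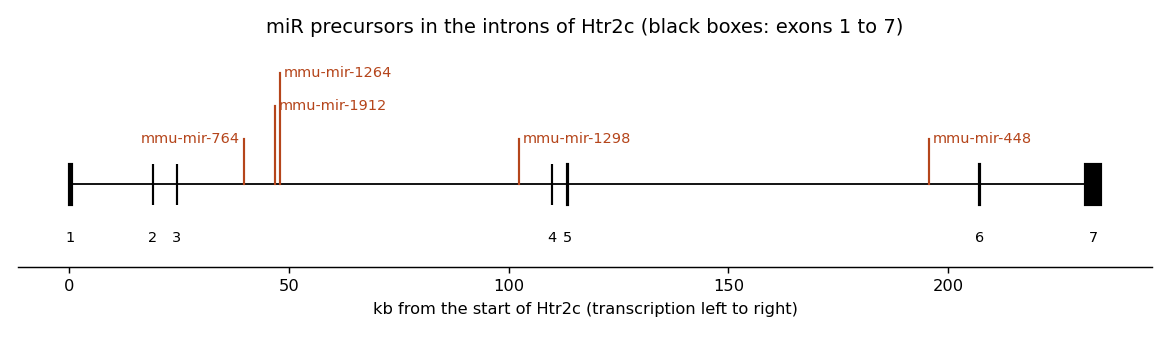
Map of Htr2c in kb from the start of the gene, with exons as black boxes numbered 1 to 7 and the 5 miR precursors as red lines. Precursors mmu-mir-764, mmu-mir-1912, mmu-mir-1264 and mmu-mir-1298 stand between exons 3 and 4, and mmu-mir-448 stands between exons 5 and 6.

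The mature sequences show what the 5 precursors do and do not share. They were read from RefSeq (table of assembly GRCm38.p6), which gave 8 mature sequences for the 5 precursors, and each is printed 5′ to 3′ with its seed in capitals.
mmu-miR-764-5p: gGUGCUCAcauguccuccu
mmu-miR-764-3p: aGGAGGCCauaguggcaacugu
mmu-miR-1912-3p: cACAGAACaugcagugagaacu
mmu-miR-1264-3p: cAAAUCUUauuugagcaccugu
mmu-miR-1298-5p: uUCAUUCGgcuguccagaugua
mmu-miR-1298-3p: cAUCUGGGcaacugauugaacu
mmu-miR-448-5p: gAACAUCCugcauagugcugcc
mmu-miR-448-3p: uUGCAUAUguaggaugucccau

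The 8 mature sequences held 8 distinct seeds, so no pair among these 8 shares a seed despite the shared host. The table gave only the 3p sequence of mmu-mir-1912 and mmu-mir-1264, and their 5p seeds were not compared. Of the 1738 mature sequences in the table, none outside the members had the seed of 7 of the 8, and mmu-miR-764-3p shared its seed with mmu-miR-7062-5p. Each of the 8 matched the NCBIM37 genome at 1 place, inside Htr2c, and no second locus with the same mature sequence was found. The hairpin of mmu-mir-1912 is shown because it is the member with the largest difference after stress, with the 3p mature sequence in capitals.
mmu-mir-1912 hairpin: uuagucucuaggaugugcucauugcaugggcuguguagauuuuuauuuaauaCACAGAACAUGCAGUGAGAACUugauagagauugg

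All 6 members passed the filter on low counts, among 18593 genes and 500 miRs that did. The mRNA libraries held 41076780 to 60867747 counted reads and the small RNA libraries 5086554 to 13522287. Levels are given as counts per 1000000 reads (CPM) after TMM scaling, and differences as log2 fold changes with their standard error from limma. The labelled tissue was checked with 10 genes of medium spiny neurons, the main neuron of the NAc, which were all detected and summed to between 4683 and 5899 CPM per library. The 6 genes of cortical glutamatergic neurons were uneven between libraries and summed to between 5.43 and 21.3 CPM in NSM, 47.9 and 197 in SM, 21.3 and 364 in NSF and 42.6 and 114 in SF. The 11 choroid plexus genes summed to between 34.5 and 46.1 CPM in 11 libraries and to 113 CPM in NSM1. Outside NSM1 most of the sum came from Clic6 (22.7 to 31.3 CPM) and Kl (8.41 to 11.7 CPM), while Ttr lay between 0.487 and 2.62 CPM. No gene of these lists was at 0 reads in any library.

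The 5 member miRs of this host differed in level by more than 2 orders of magnitude. mmu-mir-1264 took between 88.4% and 91.0% of the reads of the 5 precursors in every pool, and it ranked 87th of the 500 miRs by mean level. mmu-mir-1298 took 6.39% to 8.42%, mmu-mir-764 took 1.21% to 1.61%, and mmu-mir-448 took 0.890% to 1.42%. mmu-mir-1912, whose hairpin is the nearest to that of mmu-mir-1264, took 0.212% to 0.408%. Only the ranges of mmu-mir-764 and mmu-mir-448 overlapped, so the order of the other members was the same in all 12 pools. Htr2c itself ranked 868th of 18593 genes. The counts are not corrected for how readily each sequence enters a small RNA library, so the order is one of reads and not of molecules.

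The depth behind each miR set how small a difference could be seen. mmu-mir-1264 had 7496 to 23615 reads per library, mmu-mir-1298 had 640 to 1662, mmu-mir-764 had 120 to 335, mmu-mir-448 had 99 to 231 and mmu-mir-1912 had 21 to 106. From counting error alone, the expected SD on the log2 scale was 0.0134 for mmu-mir-1264 and 0.239 for mmu-mir-1912, and the observed SDs within groups were 0.117 and 0.223. The spread of mmu-mir-1912 between pools was therefore no larger than its counting error. For mmu-mir-764 the observed SD (0.0832) was also under the counting SD (0.108), whereas for mmu-mir-448 (0.180 against 0.121), mmu-mir-1298 (0.102 against 0.0465) and Htr2c (0.110 against 0.0144) it was larger. These counting values take reads as independent, which amplified reads are not.

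Htr2c mRNA stood at 214, 221 and 198 CPM in the 3 NSM pools, at 235, 253 and 202 CPM in SM, at 223, 193 and 199 CPM in NSF and at 204, 192 and 192 CPM in SF. The 4 groups overlapped, pools SM2 and SM1 were the highest, and the highest pool was 1.31 times the lowest. Group means were 211 ± 11.6, 230 ± 25.8, 205 ± 16.1 and 196 ± 6.88 CPM (SD, n = 3) in NSM, SM, NSF and SF.

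The most abundant miR, mmu-mir-1264, stood at 1664, 1644 and 1429 CPM in NSM, at 1712, 1737 and 1460 CPM in SM, at 1503, 1408 and 1284 CPM in NSF and at 1561, 1406 and 1405 CPM in SF. In each of the male groups the pool numbered 3 was the lowest, as it was for Htr2c. The group means were 1579 ± 131, 1636 ± 153, 1398 ± 110 and 1457 ± 90.1 CPM (SD, n = 3), again with overlap between all groups.

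The rarest miR, mmu-mir-1912, stood at 5.05, 4.02 and 4.002 CPM in NSM, from 34, 21 and 21 reads. In SM it stood at 6.35, 7.80 and 6.17 CPM, from 74, 106 and 40 reads. The lowest SM pool was above the highest NSM pool. In NSF it stood at 3.53, 4.35 and 5.02 CPM, from 25, 45 and 39 reads, and in SF at 5.64, 4.13 and 5.75 CPM, from 53, 29 and 64 reads. The female groups overlapped, since SF2 was below 2 of the NSF pools. Group means were 4.36 ± 0.602, 6.77 ± 0.893, 4.30 ± 0.750 and 5.17 ± 0.909 CPM (SD, n = 3).

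For mmu-mir-764 the values were 24.7, 23.0 and 25.7 CPM in NSM, 22.7, 24.6 and 21.8 in SM, 22.0, 20.0 and 20.7 in NSF and 24.2, 24.04 and 21.7 in SF. NSF was the lowest group and did not overlap NSM. mmu-mir-1298 stood at 154, 129 and 122 CPM in NSM, and its other 9 pools lay between 113 and 131 CPM. NSM1, the pool with the highest mmu-mir-1298, was also the one with the high choroid plexus sum, in which Ttr, the transthyretin gene of that epithelium, reached 66.1 CPM. mmu-mir-448 ranged from 14.3 CPM in NSF2 to 23.3 CPM in SM3, with group means of 18.8 ± 0.364, 20.0 ± 3.16, 17.6 ± 3.02 and 16.7 ± 1.21 CPM (SD, n = 3) in NSM, SM, NSF and SF.

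**Figure D2:**
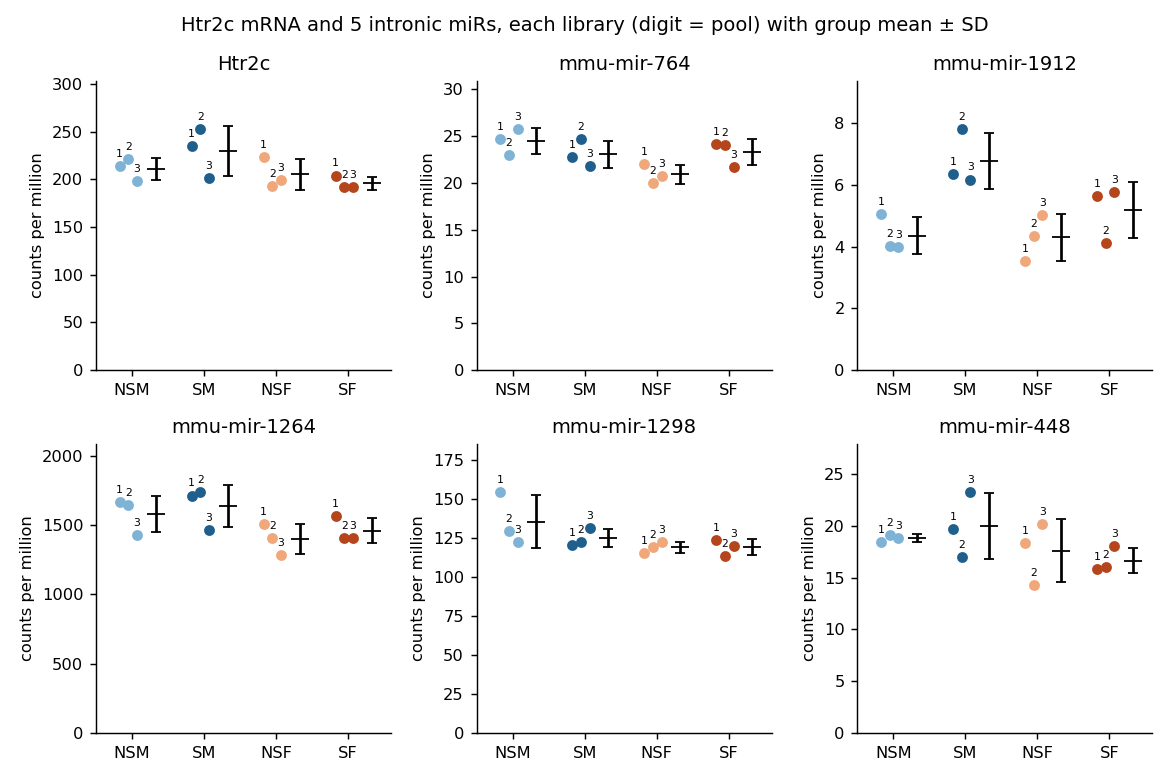
Levels of Htr2c and the 5 intronic miRs in CPM (vertical axes from 0) for the groups NSM, SM, NSF and SF; each point is 1 library with its pool number, and the bar beside it is the group mean ± SD (n = 3). The 3 SM pools of mmu-mir-1912 lie above the 3 NSM pools, while the groups of Htr2c and mmu-mir-1264 overlap.

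The first question of the design is what SCVS changed in males. mmu-mir-1912 was higher in SM than in NSM by 0.62 ± 0.20 on the log2 scale (SE), a fold of 1.54, with 3 of 3 SM pools above the NSM mean. It met the thresholds used for calls (unadjusted p under 0.05 and a fold of at least 1.3), which 5.20% of the tested miRs met in this comparison, and its groups did not overlap, as was so for 19.6% of the tested miRs. As this miR was chosen on that change, nothing is read from either. Its host did not show a change of that size: Htr2c differed by 0.12 ± 0.08, with SM3 below the NSM mean, in a comparison in which 6.44% of genes met the thresholds. The Htr2c value was 0.05 without SM2 and 0.21 without SM3. The other 4 miRs of the host differed by 0.05 ± 0.09 (mmu-mir-1264), 0.05 ± 0.15 (mmu-mir-448), -0.08 ± 0.11 (mmu-mir-764) and -0.12 ± 0.09 (mmu-mir-1298), and none met the thresholds. Thus 1 of the 6 members met them, and the members' median was 0.05, against -0.01 over all genes and -0.01 over all miRs. The difference of mmu-mir-1298 was -0.02 without NSM1. The cortical gene sum was higher in each SM pool than in each NSM pool, its Pearson r with mmu-mir-1912 over the 12 pools was 0.330, and its part in the male difference was not tested.

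With SCVS in females, none of the 6 members met the thresholds, which 4.80% of miRs and 1.73% of genes met. mmu-mir-1912 was higher in SF by 0.28 ± 0.19, with 2 of 3 SF pools above the NSF mean. mmu-mir-764 was higher by 0.15 ± 0.11 with 3 of 3 pools above that mean, and the groups still overlapped. Htr2c differed by -0.06 ± 0.08, mmu-mir-1264 by 0.06 ± 0.09, mmu-mir-1298 by 0.00 ± 0.09 and mmu-mir-448 by -0.05 ± 0.15. The value of mmu-mir-448 rested on which libraries were used, and was 0.21 without NSF1 and NSF3, the 2 pools with the highest cortical gene sums. That fit leaves NSF2 as the only NSF library, which had the lowest mmu-mir-448 of all pools (14.3 CPM). Without NSF2 the value was -0.21. The members' median was 0.03, against 0.00 over all genes and 0.01 over all miRs.

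The difference between the sexes in their response was fitted as an interaction, the female minus the male log2 fold change. For mmu-mir-1912 it was -0.34 ± 0.28, so its response was not shown to differ between the sexes. For Htr2c it was -0.18 ± 0.11, for mmu-mir-764 0.23 ± 0.15, for mmu-mir-1298 0.12 ± 0.13, for mmu-mir-448 -0.10 ± 0.21 and for mmu-mir-1264 0.01 ± 0.13. None of the 6 members met the thresholds, which 6.80% of miRs and 4.42% of genes met.

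Between unstressed females and unstressed males, all 6 members were lower in females, and none met the thresholds that 7.60% of miRs and 5.31% of genes met. mmu-mir-764 was lower in NSF by 0.23 on the log2 scale (log2 fold change -0.23 ± 0.11) and was the only member without overlap between these groups, where 23.2% of all tested miRs had none. The differences were -0.18 ± 0.09 for mmu-mir-1264 and -0.18 ± 0.09 for mmu-mir-1298, each with 3 of 3 NSF pools under the NSM mean. For Htr2c it was -0.04 ± 0.08, for mmu-mir-1912 -0.04 ± 0.22 and for mmu-mir-448 -0.12 ± 0.15. The direction of these members rested on single pools. Without NSF2 the value was 0.001 for Htr2c and 0.03 for mmu-mir-448, and without NSM1 it was 0.08 for mmu-mir-1912. Without NSM1 the value of mmu-mir-1298 was -0.08. The members' median was -0.15, against 0.00 over all genes and -0.02 over all miRs.

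Between stressed females and stressed males, 5 of the 6 members were lower in females. mmu-mir-1912 was lower in SF (log2 fold change -0.38 ± 0.17) without overlap, as held for 13.0% of miRs in either direction, and met the thresholds that 5.20% of miRs met. It no longer met them in 8 of the 21 other settings tried, among them the analysis without SM2, where the value was -0.26. This comparison reuses the SM pools on which the miR was chosen, and nothing is read from it. Htr2c was lower (-0.22 ± 0.08) with 3 of 3 SF pools under the SM mean, a fold of 0.857 that stayed inside the fold threshold, while 5.55% of genes met both thresholds. The summed ependyma genes were higher in SF (14.8 to 25.3 CPM) than in SM (10.6 to 14.4 CPM), all 6 were detected in every library and 3 of them (Foxj1, Ccdc153 and Tmem212) met the thresholds, and their part in the Htr2c difference was not tested. mmu-mir-1264 differed by -0.17 ± 0.09, mmu-mir-448 by -0.22 ± 0.14, mmu-mir-1298 by -0.06 ± 0.09 and mmu-mir-764 by 0.00 ± 0.10. The members' median was -0.19, against 0.01 over all genes and 0.01 over all miRs. The male and female SCVS differences and the sex differences share groups, so their directions are not separate observations.

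**Figure D3:**
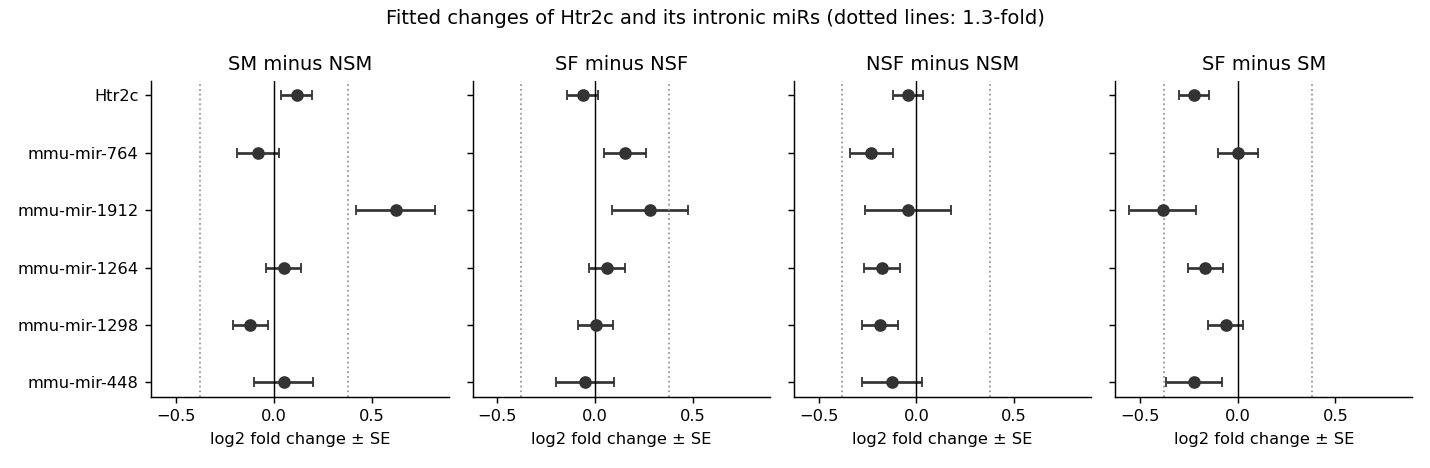
Fitted log2 fold changes ± SE (horizontal axes) of Htr2c and the 5 intronic miRs in the 4 pairwise comparisons, with dotted lines at 1.3-fold. In the comparison of SM with NSM, mmu-mir-1912 is the member beyond the dotted line, at 0.62.

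Pool by pool, mmu-mir-1264 followed the level of its host, and the other 4 miRs had lower correlations. Over the 12 pools, the Pearson correlation of log2 CPM between Htr2c and mmu-mir-1264 was r = 0.836 (Spearman's rho = 0.881). It was 0.860 for deviations from the group means, 0.900 over the 6 male pools and 0.490 over the 6 female pools. Leaving out each pool gave 0.799 to 0.892, and leaving out the 2 pools with the most extreme Htr2c gave 0.712. The log2 ratio of mmu-mir-1264 to Htr2c had an SD of 0.0760 over the pools, smaller than the SD within groups of either of them.

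The remaining miRs of the host had r of 0.413 (mmu-mir-1912), 0.305 (mmu-mir-764), 0.144 (mmu-mir-448) and 0.125 (mmu-mir-1298), with rho of 0.259, 0.329, 0.245 and 0.371. The value of mmu-mir-1912 rested on SM2, which was the highest pool for both and without which r was 0.0330, and it turned to -0.364 without the 2 pools with the most extreme Htr2c. Over the 6 female pools it was -0.505. For deviations from the group means r was negative for mmu-mir-448 (-0.343) and mmu-mir-1298 (-0.105). The miRs did not follow each other closely either: mmu-mir-1912 and its neighbour mmu-mir-1264 had r = 0.404 (rho = 0.364), and the highest of the 10 pairs of miRs was mmu-mir-764 with mmu-mir-1264 at r = 0.498 (rho = 0.552). At 21 to 106 reads, counting error alone limits the correlation that mmu-mir-1912 could show. All these points share their homogenate and, within an assay, the scaling of the library, and no p-value is given for them.

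**Figure D4:**
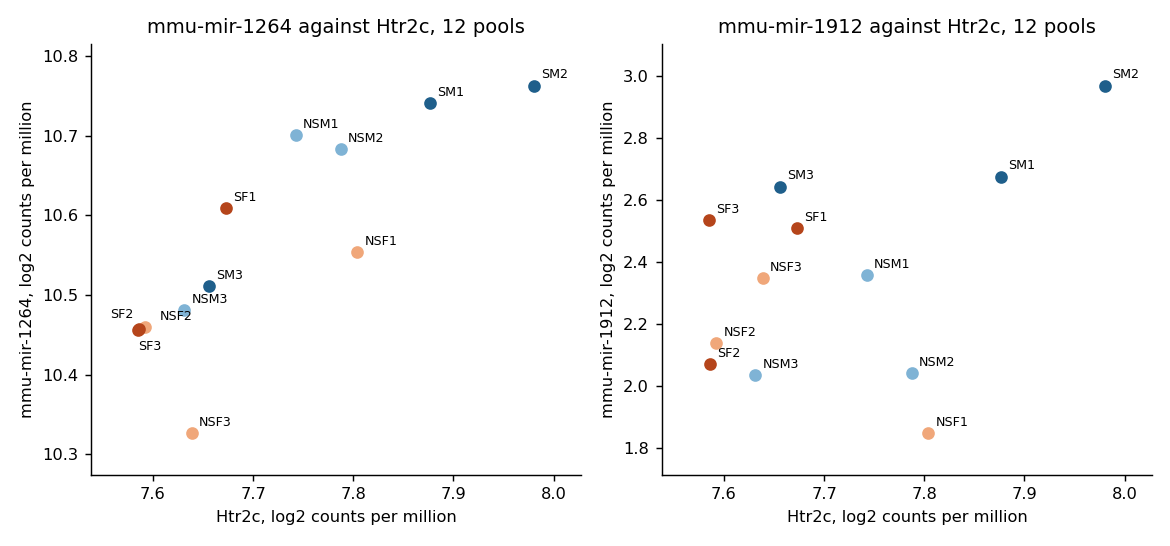
Log2 CPM of mmu-mir-1264 (left) and mmu-mir-1912 (right) against Htr2c, each point a pool coloured by group and named. The left panel rises from SF2, SF3 and NSF2 to SM2 (r = 0.836), while the right panel shows r = 0.413 that rests on SM2.

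To place this correlation, it was ranked among all features. mmu-mir-1264 had the highest r with Htr2c of all 500 miRs, and also the highest for deviations from the group means. The next were mmu-mir-101a (0.803) and mmu-mir-7056 (0.737), which are not in this locus. Seen from the miR, the host did not stand apart in the same way: 507 of the 18593 genes (2.73%) had a higher r with mmu-mir-1264 than Htr2c did. For mmu-mir-764 this was so for 3403 genes, for mmu-mir-1912 for 3731, for mmu-mir-448 for 5400 and for mmu-mir-1298 for 6873.

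Genes of medium spiny neurons were among those that followed mmu-mir-1264. Penk, the precursor of enkephalin, had r = 0.904 with mmu-mir-1264 and 0.659 with Htr2c. The values were 0.795 and 0.646 for the dopamine receptor gene Drd1, and 0.754 and 0.453 for Pdyn, the precursor of dynorphin. Others of the same list were near 0, among them Rgs9 (0.0499 and 0.00989) and Bcl11b (-0.104 and -0.119), so the 10 genes did not move as a block. The summed list had r = 0.710 with mmu-mir-1264 and 0.514 with Htr2c, and the part of the share of these neurons in a punch was not tested. The choroid plexus sum, which outside NSM1 was mostly Clic6 and Kl, had r = 0.0397 with Htr2c. Its r of 0.794 with mmu-mir-1298 came with rho of 0.0210. The ependyma sum, of 6 genes between 10.6 and 25.3 CPM, had r = -0.622 with Htr2c and -0.672 with mmu-mir-448.

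The 5 genes with the pattern most like Htr2c over the 12 libraries were Txndc16 (r = 0.949), Scfd1 (0.949), Rps25-ps1 (0.941), Rnf168 (0.935) and Plk1s1 (0.933). The lowest were Trim47 (-0.919) and Sox13 (-0.918). Txndc16 also had r = 0.923 with mmu-mir-1264.

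Dividing each miR by its host in the same pool gave a second view of the groups, on the scale of CPM of the miR per CPM of Htr2c, which is not a ratio of molecules. For mmu-mir-1264 the ratio lay between 6.44 and 7.77 in all 12 pools, with group means of 7.47 ± 0.284 in NSM, 7.13 ± 0.222 in SM, 6.82 ± 0.434 in NSF and 7.43 ± 0.195 in SF (SD, n = 3). For mmu-mir-1912 it was 0.0207 ± 0.00273 in NSM and 0.0295 ± 0.00215 in SM. The ranges of 0.0182 to 0.0236 and 0.0270 to 0.0309 did not overlap. As this miR was chosen on its change in males, nothing is read from that. In females the mmu-mir-1912 ratio was 0.0212 ± 0.00486 in NSF and 0.0264 ± 0.00439 in SF, with overlap. The mmu-mir-764 ratio was 0.102 ± 0.00311 in NSF and 0.119 ± 0.00618 in SF, and 0.116 ± 0.0129 in NSM and 0.101 ± 0.00618 in SM. Its NSF and SF ranges (0.0985 to 0.104 and 0.113 to 0.125) did not overlap. Nor did those of mmu-mir-1264 (6.44 to 7.30 and 7.32 to 7.65), though NSF2 (7.295) and SF2 (7.315) nearly met. How often such ratios separate over all miRs was not computed. Both ratios also divide by the same Htr2c values, so they are not separate observations and nothing is read from either.

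Few reads of the mRNA libraries were counted on other features at the locus. The rows of the mRNA table that stand for the 5 hairpins held 0 or 1 read per library. The other annotated features inside the gene, Snora35, BX005219.1 and AL808014.1, held at most 2, 3 and 6 reads and did not pass the filter. BX005219.1 in intron 3 and AL808014.1 in intron 5 are annotated as miRNA genes and are not among the members. Within 500 kb, the pseudogenes Gm15076, Gm8261, Gm15075, Gm15074, Gm4996 and Vmn1r239-ps and the cytokine receptor gene Il13ra2 held at most 4 reads each. The copy named SNORA35 had 4 to 18 reads and Lrch2, 273 kb downstream on the other strand, had 2041 to 3031. Neither met the thresholds in the 4 pairwise comparisons, and the log2 fold changes of Lrch2 were -0.02 ± 0.05 for SCVS in males and 0.06 ± 0.05 in females (limma, adjusted p = 0.826 and 0.948).

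Among the serotonin receptors, Htr2c had the highest level per length of mRNA in the NAc. Per kb of annotated exon it stood at 22.6 CPM on average and between 20.6 and 27.1 in the 12 libraries. Htr2a, the closest relative and also coupled to Gq, came next at 7.28 (6.21 to 8.66) and overlapped neither Htr2c nor the next receptor. Then came the Gi-coupled receptors Htr1b (4.86) and Htr1d (4.42), the Gs-coupled Htr6 (3.24) and Htr4 (2.81), and Htr1a (2.14), Htr5a (2.00), Htr1f (1.65), the Gs-coupled Htr7 (1.57) and the ion channel subunit Htr3a (1.08). From Htr1b to Htr3a, neighbours in this order overlapped in range. Htr5b (0.259) and Htr2b (0.0819), with at most 36 and 15 reads, lay below them. Htr3b had at most 8 reads and was not tested.

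**Figure D5:**
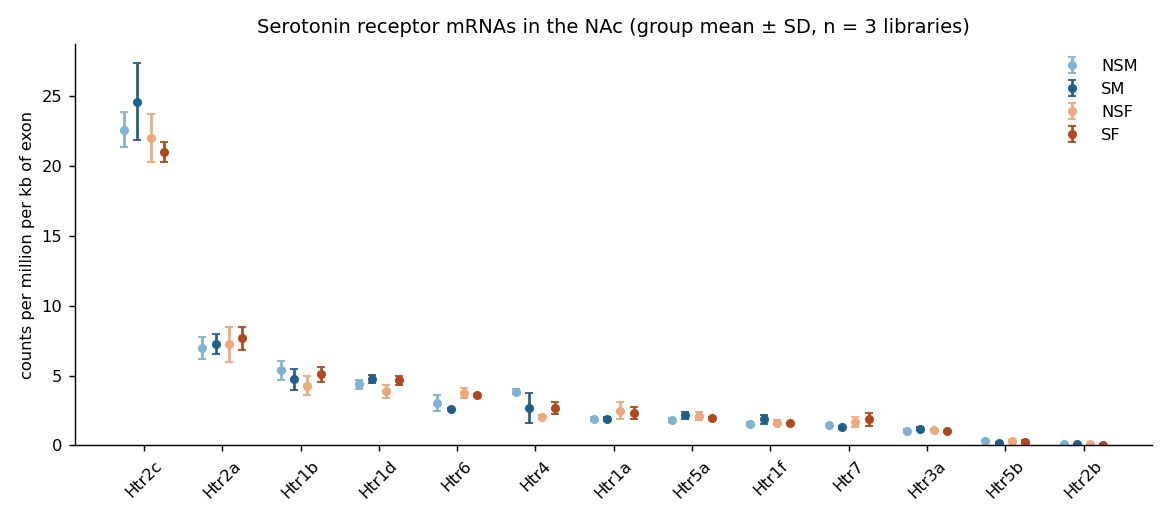
Levels of the 13 tested serotonin receptor mRNAs in CPM per kb of annotated exon (vertical axis from 0), as group means ± SD (n = 3 libraries) for NSM, SM, NSF and SF. Htr2c lies at 21.02 to 24.6 in the 4 groups, above Htr2a at 6.96 to 7.66.

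Some other receptors met the thresholds. Of the 12 other receptor genes tested, 2 met them in males after SCVS, as did 6.44% of all genes, and both were lower in SM, Htr4 by 0.62 (log2 fold change -0.62 ± 0.19, limma adjusted p = 0.0843) and Htr5b (-0.83 ± 0.35, adjusted p = 0.195). Htr4 stood at 17.1, 18.8 and 17.8 CPM in NSM and at 18.1, 8.29 and 10.9 CPM in SM, so that SM1 lay within the unstressed range, and without SM2 the value was -0.36 and did not meet the thresholds. In NSF it was lower than in NSM (9.08, 10.2 and 9.13 CPM, log2 fold change -0.91 ± 0.19, adjusted p = 0.0672), and its interaction was 1.01 ± 0.27 (adjusted p = 0.252). In females after SCVS only Htr2b met the thresholds (-1.02 ± 0.34, adjusted p = 0.948), from 4 to 15 reads per library. Htr6 (0.46 ± 0.13, adjusted p = 0.107) and Htr7 (0.52 ± 0.18, adjusted p = 0.182) were higher in SF than in SM. The receptors with the most counts in their group of the lists, uncorrected for length, Htr2a (0.06 ± 0.12 in males, adjusted p = 0.810) and Htr1d (0.11 ± 0.09, adjusted p = 0.487) did not meet the thresholds in any comparison. No adjusted p in this family was under 0.05 in the main fit. With the pool number added to the limma fit, it was 0.0234 for Htr4 between NSF and NSM and 0.0293 for Htr6. In that fit it stayed above 0.05 for Htr4 in males (0.0710) and for Htr7 (0.0732). Over all the other settings the adjusted p of each of these 4 differences lay on both sides of 0.05, so it depended on the setting.

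The 12 genes of the Gq and phospholipase C cascade below the receptor were compared next. None reached a fold of 1.3 with SCVS, but 3 had an adjusted p under 0.05 in males, all higher in SM. Over all tested genes 3.32% passed that adjusted p, and 1.48% did so with a higher level in SM. The 3 genes were named after their values were seen. Itpr1, the main inositol trisphosphate receptor of neurons, stood at 1200, 1288 and 1109 CPM in NSM and 1526, 1718 and 1409 in SM (0.37 ± 0.09, limma adjusted p = 0.0490). Plcb1, a phospholipase C, differed by 0.29 ± 0.07 (adjusted p = 0.0438) and Prkca, a protein kinase C, by 0.24 ± 0.05 (adjusted p = 0.0297). The SM and NSM pools did not overlap for these 3 genes, as held for 23.0% of all genes in either direction, and all 3 lost the adjusted threshold in some settings, including the 6 male libraries alone. Prkcb, the most abundant kinase of the list, differed by 0.25 ± 0.09 (adjusted p = 0.142). The list's median was 0.06 in males and 0.03 in females, where the smallest adjusted p was 0.948. Itpr3 was higher in NSF than in NSM (0.50 ± 0.12, adjusted p = 0.0924), at 4.33, 5.20 and 5.46 against 3.57, 3.39 and 3.65 CPM.

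Of the 5 genes that make and load miRs, Ago2, an Argonaute protein that holds the mature miR, was lower in SM. It stood at 196, 190 and 196 CPM in NSM and at 154, 153 and 154 CPM in SM (-0.34 ± 0.06, limma adjusted p = 0.00853), a difference under 1.3-fold. The female pools lay between, at 172, 188 and 171 CPM in NSF and 180, 176 and 157 in SF. Drosha differed by less than its error (0.02 ± 0.04, adjusted p = 0.866), and none of the 5 met both thresholds in any comparison. With Ago2 included, 3 of the 5 had an unadjusted limma p under 0.05 in males, and the list's median was -0.131. Between NSF and NSM 3 of the 5 did so, with a median of -0.127 and no adjusted p under 0.05. The share of all genes under that unadjusted p is not given here. The adjusted p of Ago2 was 0.0552 without SM2.

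Neither the editing enzymes nor the partners of the receptor met the thresholds in any comparison. Of the 3 editing genes, Adar differed by -0.12 ± 0.05 in males (limma adjusted p = 0.142) and Adarb1 by -0.01 ± 0.05 (adjusted p = 0.956). Of the 9 genes of receptor anchoring and desensitization, the scaffold gene Dlg4 differed by 0.07 ± 0.05 (adjusted p = 0.461) and the arrestin gene Arrb1 by 0.06 ± 0.05 (adjusted p = 0.455). Over all 41 tested genes of these lists, 2 met the thresholds in males, 1 in females, 2 between unstressed sexes, 2 between stressed sexes and 1 in the interaction, against the 6.44%, 1.73%, 5.31%, 5.55% and 4.42% of all genes given above.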

How the data were processed

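The deposited values were raw counts per gene and per miR precursor, which the authors made, by the study's methods and the processing notes in the labels, with TopHat2 and HTSeq on NCBIM37/mm9 and Ensembl 67 for mRNA (paired 50 bp reads), and with Bowtie, mm9 and HTSeq for small RNA (100 bp reads, trimmed and kept from 16 nt). The methods name the mature annotation of miRBase 21, while the deposited rows carry precursor names, so which arms a row holds was not settled. The handling of multiple matches is not given in the sources used here. Groups came from the sample labels, and nothing else was used to assign them. A feature was tested where, in any group, 80% or more of its libraries held over 5 reads, which left 18593 of 38293 genes and 500 of 1180 precursors. TMM factors, voom (offset 0.5) and limma 3.58.1 (edgeR 4.0.16, R 4.3.3) were applied to all 12 libraries of an assay with a mean for each group, after the model of the study, and p-values were adjusted over all tested features (Benjamini-Hochberg, two-sided). A call was an unadjusted p under 0.05 with a fold of at least 1.3. The pipeline was tested on simulated data. Other settings were DESeq2 1.42.0, the quasi-likelihood test of edgeR, library size or RLE scaling, 2 other filters, the 6 libraries of a comparison, a replicate block, each library left out and, chosen after seeing the data, NSF1 and NSF3 left out.

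The members and all gene lists were chosen with earlier results of these data known. Named were all members, every called gene and the 2 most abundant genes of each list, the genes and miRs with the highest r (2 lowest for Htr2c), and annotated neighbours within 500 kb; Itpr1, Plcb1, Prkca and Ago2 were also named for their adjusted p, Penk, Drd1, Pdyn, Rgs9 and Bcl11b from the marker list after their values were seen. 1 gene of the lists is not reported here. No 2 libraries held identical counts. Depth limits the precision of mmu-mir-1912 most. Hairpin coordinates came from GENCODE vM1, and mature sequences from RefSeq were matched exactly to NCBIM37 (Python 3.11.15, matplotlib 3.10.9).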

Additional observations from a re-analysis of the deposited data

How the results depend on the processing

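The male difference of mmu-mir-1912 met the thresholds in all 21 other settings (0.50 to 0.74 on the log2 scale). The miR was chosen on that change and the settings refit the same pools, so nothing is read from this count. Its difference between SF and SM, which reuses the SM pools, met the thresholds in 13 of 21 (-0.49 to -0.26). That difference did not meet them with DESeq2, library size scaling, the replicate block, the 6 libraries alone, or without SM2, SF2, NSM2 or NSF2. No other member met the thresholds in any setting. Leaving out 1 library moved mmu-mir-1298 between -0.165 (without NSM3) and -0.0155 (without NSM1) for SCVS in males. Without NSM3 and without NSM1 it was -0.245 and -0.0800 for NSF against NSM, and 0.163 and 0.0180 for the interaction. Without NSF1 and NSF3, which leaves NSF2 as the only NSF library, mmu-mir-448 was 0.21 for SCVS in females. It was -0.39 for NSF against NSM and 0.14 for the interaction in that fit. The correlation with Htr2c was 0.116 (mmu-mir-1912) and -0.343 (mmu-mir-448) for deviations from group means, and -0.364 for mmu-mir-1912 without the 2 extreme pools, with 0.0330 to 0.608 over the pools left out. For mmu-mir-1264 it was 0.723 with library size scaling, 0.712 without the 2 extreme pools and 0.934 without NSF1 and NSF3. These causes were not tested.

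The number of list genes called in females was 0 with DESeq2 or at least 10 reads in every library and 2 with the 6 libraries alone. In the interaction it was 2 with DESeq2, library size scaling or at least 1 read in any library. Leaving out 1 library gave 0 to 3 calls in males, 0 to 2 in females, 2 to 4 between unstressed sexes, 1 to 5 between stressed sexes and 1 to 3 in the interaction. Over all features, called genes in females were 322, 194 with DESeq2, 865 with at least 1 read in any library and 205 with at least 10 reads in every library. Called miRs in males were 26, 16 with DESeq2 and 61 with at least 1 read.

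Pools of the same number in unstressed and stressed groups of a sex were compared by their deviations from the group means. The correlations were 0.0244, 0.000725 and 0.316 in males and 0.100, 0.0756 and 0.107 in females for mRNA, and 0.0473, -0.0197 and 0.294 in males and 0.116, 0.191 and 0.307 in females for small RNA, so the numbers were not taken to pair the pools. In females every pool correlated best with its own number in both mRNA and small RNA, a hint from the data only. In males this did not hold, as NSM1 correlated best with SM2 (0.181 for mRNA and 0.171 for small RNA). With the replicate block, called genes in males were 1309 in place of 1198 and called miRs 34 in place of 26.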

Other observations

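The miRs with the pattern most like each intronic miR over the 12 pools were not from the same locus. For mmu-mir-764 they were mmu-mir-19b-1 (r = 0.753), mmu-mir-221 (0.742) and mmu-mir-324 (0.705), and for mmu-mir-1912 they were mmu-mir-143 (0.798), mmu-mir-7047 (0.770) and mmu-mir-30c-1 (0.756). For mmu-mir-1264 they were mmu-mir-101a (0.907), mmu-mir-101b (0.878) and mmu-mir-3106 (0.856). For mmu-mir-1298 they were mmu-mir-1927 (0.755), mmu-mir-378c (0.684) and mmu-mir-7059 (0.640), and for mmu-mir-448 mmu-let-7g (0.819), mmu-mir-496a (0.708) and mmu-mir-129-1 (0.688). These are descriptions over 12 points that share library scaling, and each is picked as the highest among the tested miRs.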
